A study of Mus musculus with 15 samples.

Results

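Mouse chromosome 16 was read gene by gene, from its centromeric to its telomeric end, in 3 kinds of medulloblastoma and in the 2 populations of young cerebellar cells measured beside them. A chromosome was represented by the probe sets that the array annotation gives to a single gene, placed by that gene's position in GRCm38.p6 (mm10). Of 17097 genes measured, 568 lay on chromosome 16, through 1064 probe sets. Their level was the log2 signal of the gene's brightest probe set, and 321 of them had a mean over the 15 arrays above the background level of 4.77, the upper end of nonspecific control probe sets. The chromosome was chosen by its difference from the GFP-positive arrays in the tumours, so values against those 3 arrays are given as a description, with no test and no count of calls.

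Each of the 5 groups held 3 arrays, and every group carried loss of Cdkn2c, the gene of a cyclin-dependent kinase inhibitor, and of Trp53, the gene of the tumour suppressor p53. For Myc primary tumours, cerebellar cells of Cdkn2c-/-, Trp53-/-, Atoh1-GFP mice were infected with Myc and put into the cerebral cortex of nude mice. Myc secondary tumours came from spheres cultured from the primary tumours and transplanted orthotopically. Shh tumours arose spontaneously in Cdkn2c-/-; Trp53Fl/Fl; Nestin-Cre mice, in which Nestin-driven Cre removes Trp53 from neural progenitors and their progeny. GFP-positive and GFP-negative cells were sorted by flow cytometry from cerebella of Cdkn2c-/-, Trp53-/-, Atoh1-GFP mice at postnatal day 6, where Atoh1-GFP marks granule neuron progenitors. The sample labels call both sorted populations spontaneous tumour while the design text calls them sorted cerebellar cells, and the design text was followed. Tumour ages are not given in the sources used here. The labels do not tie the 3 arrays of a group to separate animals, so the p-values rest on a spread between arrays that may be technical.

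Mouse chromosome 16 carries several segments that are conserved with regions of human chromosomes of medical interest. Its proximal part holds the genes of the DiGeorge region, and its distal part holds a large share of the counterparts of human chromosome 21, the basis of mouse models of Down syndrome. Between them lie genes for cell adhesion and axon guidance, such as Alcam, Nectin3 and the Robo receptors, and Boc, a co-receptor for the Hedgehog ligand that drives division of granule neuron progenitors. Genes that are neighbours along a chromosome usually have unrelated functions, so an expression difference that is shared over long stretches appears only when genes are put in map order. RNA was measured here and DNA was not.

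Shh 2 had a high stretch that ended at Zfp148 and began at Atp13a3 when set against Shh 3, or 2 genes earlier, at Opa1, when set against Shh 1. The 250 bases before the start sites of genes at these edges and inside are shown, from RefSeq in GRCm38.p6. Opa1 encodes a protein of mitochondrial fusion and was the first gene by the comparison with Shh 1, Cep19 encodes a centrosomal protein and lay inside, Zfp148 encodes a zinc finger transcription factor and was the last gene, and Itgb5, encoding an integrin subunit, was the next gene outside. Capitals mark GGGCGG or its complement CCGCCC, the core of the GC box, and CACGTG, the E-box motif that Myc can bind, was searched on the same 250 bases. Its letters are the same on both strands, and a match of one motif can overlap a match of the other by 1 base.
Opa1, chr16:29579084-29579333, plus strand: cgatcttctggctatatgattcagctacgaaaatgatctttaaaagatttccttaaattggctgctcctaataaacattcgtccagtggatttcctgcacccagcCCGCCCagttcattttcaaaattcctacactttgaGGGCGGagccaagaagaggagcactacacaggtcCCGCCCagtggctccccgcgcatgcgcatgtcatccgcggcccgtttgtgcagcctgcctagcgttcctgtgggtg
Cep19, chr16:32099539-32099788, plus strand: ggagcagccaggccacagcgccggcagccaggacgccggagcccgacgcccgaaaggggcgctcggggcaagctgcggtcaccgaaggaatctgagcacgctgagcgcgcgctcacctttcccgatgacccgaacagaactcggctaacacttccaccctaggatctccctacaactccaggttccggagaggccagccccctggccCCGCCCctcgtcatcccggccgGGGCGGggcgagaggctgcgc
Zfp148, chr16:33380525-33380774, plus strand: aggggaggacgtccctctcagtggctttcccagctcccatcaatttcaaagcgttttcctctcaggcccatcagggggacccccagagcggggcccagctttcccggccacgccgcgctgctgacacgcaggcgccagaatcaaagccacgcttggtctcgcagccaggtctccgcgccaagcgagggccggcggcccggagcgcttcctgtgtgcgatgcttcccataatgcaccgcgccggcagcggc
Itgb5, chr16:33829415-33829664, plus strand: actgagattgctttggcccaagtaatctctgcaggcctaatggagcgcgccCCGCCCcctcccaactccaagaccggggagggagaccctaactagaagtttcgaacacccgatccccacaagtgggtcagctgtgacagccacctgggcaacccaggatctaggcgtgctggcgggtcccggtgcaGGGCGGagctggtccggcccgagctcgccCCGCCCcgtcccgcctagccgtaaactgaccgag
None of these 4 stretches held CACGTG. Opa1 and Itgb5 each held 3 matches of the GC box core, Cep19 held 2 and Zfp148 held 0. Pigx, which encodes a subunit of the enzyme that starts GPI anchor synthesis, is read in the opposite direction from the same stretch, and its own 250 bases share 61 with those of Cep19. CACGTG stood in 6.05% of 27025 promoters of this length, in 9.52% of the 273 that matched chromosome 16 genes above background, and in 2 of the 22 that matched genes between Atp13a3 and Zfp148. The GC box core stood in 32.9%, 59.7% and 45.5% of the same promoters. The 27025 promoters were not limited to genes above background, unlike the other 2 sets, so these shares cannot be compared directly. A match describes the letters and shows no binding.

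All 15 arrays together showed where the chromosome stood. With each array's median over all 10096 genes above background subtracted, the chromosome 16 median lay at -0.72 in Myc primary 1, -0.78 in Myc primary 2 and -0.23 in Myc primary 3. It lay at -0.77 in Shh 1, -0.50 in Shh 2 and -0.00 in Shh 3, and at -0.07, -0.65 and -0.60 in Myc secondary 1, 2 and 3. The 3 GFP-negative arrays lay at 0.05, 0.06 and -0.01. Low values were thus found in some arrays of every tumour group, and in each group 1 array, namely Myc primary 3, Shh 3 or Myc secondary 1, lay nearer 0 than the rest. On a linear scale, with the all-gene median taken off, the chromosome 16 median was 0.608, 0.583 and 0.851 in the Myc primary arrays. It was 0.587, 0.707 and 0.998 in the Shh arrays and 0.951, 0.635 and 0.658 in the Myc secondary arrays. Before that step the Shh 3 median lay at 0.11 on the log2 scale, above the GFP-positive level. In Shh 1, 282 of the 321 genes lay below the array's all-gene median, against 161 in Shh 3. RNA from pooled cells cannot tell fewer cells of a type from less RNA per cell.

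**Figure D1:**
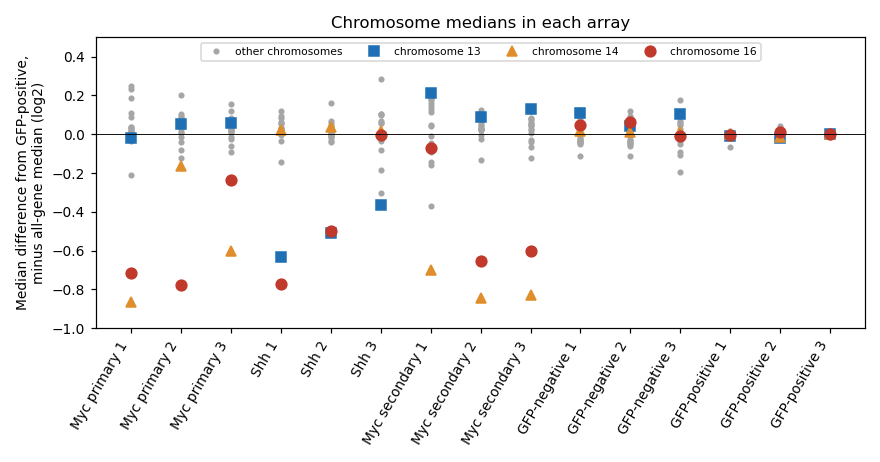
Median difference of each chromosome's genes from the mean of the GFP-positive arrays, minus the array's all-gene median, on a log2 scale, for the 15 arrays (GFP-positive arrays against the other 2 of their group). Red circles are chromosome 16, blue squares chromosome 13, orange triangles chromosome 14 and grey points the other 17 chromosomes. Chromosome 16 lies at -0.77 in Shh 1 and at -0.00 in Shh 3.

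Among the 20 chromosomes, chromosome 16 ranked lowest in Myc primary 2 and Shh 1. It ranked 2 from the lowest in Myc primary 1 and 3, Shh 2, and Myc secondary 2 and 3, 6 from the lowest in Myc secondary 1 and 10 from the lowest in Shh 3. Chromosomes 13 and 14 had shifts of similar size. Chromosome 14 lay at -0.86, -0.17 and -0.60 in the Myc primary arrays and at -0.70, -0.85 and -0.83 in the Myc secondary arrays, but between 0.02 and 0.04 in the Shh arrays. Chromosome 13 lay at -0.63, -0.51 and -0.36 in the Shh arrays and between -0.02 and 0.21 in all Myc arrays. Chromosome 16 lay below -0.3 in arrays of both the Myc and the Shh tumours, and so did chromosome 7, at -0.37 in Myc secondary 1 and -0.30 in Shh 3. The 17 chromosomes other than 13, 14 and 16 ranged from that lower value to 0.28, chromosome 4 in Shh 3.

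Cut into 4 sections of 24.52 Mb, numbered from the centromere, the chromosome held 136, 89, 30 and 66 genes above background in sections 1 to 4. As the plain difference from the GFP-positive mean, the median gene of sections 1 to 4 lay at -0.53, -0.62, -1.24 and -0.61 in Myc primary 1 and at -0.60, -0.62, -0.77 and -0.64 in Myc primary 2. Myc primary 3 lay at -0.15, -0.00, -0.47 and -0.11. Myc primary 1 and 2 were low in every section, while section 2 of Myc primary 3 was at the GFP-positive level. In each of the 3 arrays section 3, the gene-poor stretch with Alcam, Robo1 and Epha3, was lowest.

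In Shh 1 the sections lay at -0.71, -0.62, -0.63 and -0.61. In Shh 2 they lay at -0.52, 0.20, -0.13 and -0.69, and in Shh 3 at 0.11, 0.10, -0.01 and 0.20. By section, Shh 1 was low in all 4, Shh 3 lay between -0.01 and 0.20, and Shh 2 was lowest in sections 1 and 4. The Myc secondary arrays lay at -0.02, -0.17, -0.28 and 0.13, at -0.50, -0.55, -1.02 and -0.47, and at -0.55, -0.44, -0.83 and -0.39. As in the primary tumours, section 3 was the lowest of each array. This order depended on the reference and the probe sets. Against GFP-negative cells the lowest group mean in Myc primary tumours was section 4 (-0.68, section 3 -0.51). In Myc secondary tumours it was section 2 (-0.55, section 3 -0.41). With second probe sets the lowest was section 1 in Myc primary (-0.58) and section 4 in Myc secondary tumours (-0.43).

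The group means of the section medians were -0.42 ± 0.24, -0.41 ± 0.35, -0.83 ± 0.39 and -0.46 ± 0.30 (SD, n = 3) in Myc primary tumours. They were -0.37 ± 0.43, -0.10 ± 0.45, -0.26 ± 0.33 and -0.37 ± 0.49 (SD, n = 3) in Shh tumours, and -0.36 ± 0.29, -0.39 ± 0.20, -0.71 ± 0.38 and -0.24 ± 0.33 (SD, n = 3) in Myc secondary tumours. The spread between arrays of 1 group was as large as or larger than the mean in all 4 sections of the Shh tumours and in section 4 of the Myc secondary tumours, so these means describe no typical array. GFP-negative arrays gave -0.20 ± 0.27, 0.09 ± 0.31, -0.26 ± 0.19 and -0.09 ± 0.17 (SD, n = 3), of which GFP-negative 3, whose all-gene median lay at -0.40, was the lowest in each section.

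**Figure D2:**
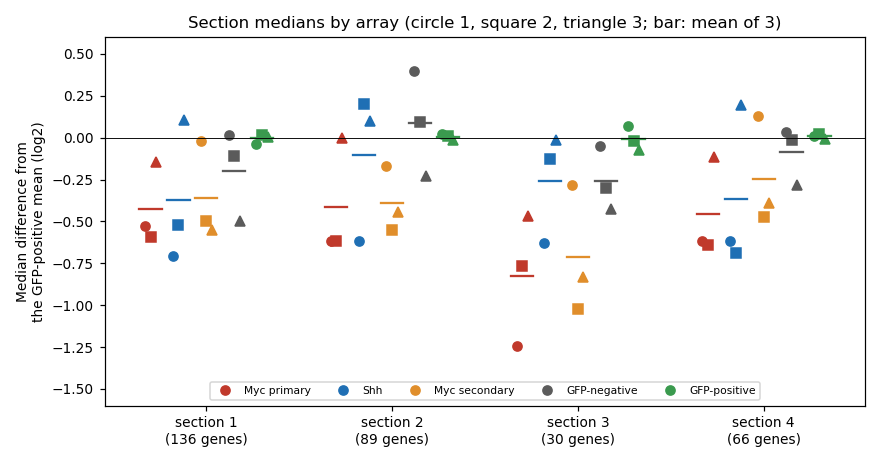
Median difference from the GFP-positive mean (log2) over the genes of each section of chromosome 16, for each array, with a bar at the mean of the 3 arrays of a group. The points of a tumour group lie far apart: in section 1, Shh 1 is at -0.71 and Shh 3 at 0.11.

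A running median over 21 neighbouring genes showed how continuous the shifts were. Of 301 windows, 291 in Myc primary 1, 299 in Myc primary 2 and all 301 in Shh 1 lay below -0.3 relative to the all-gene median. The number was 270 in Myc secondary 2 and 277 in Myc secondary 3, but 99 in Myc primary 3, 75 in Myc secondary 1 and 3 in Shh 3. The GFP-negative arrays had 14, 8 and 4 such windows and the GFP-positive arrays none. The lowest window was centred on Abhd10, encoding a mitochondrial thioesterase, in all 6 Myc arrays, where it fell to between -1.65 and -1.06. It covers Boc, Nectin3, Cd47 and Alcam, whose own values are given further on.

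**Figure D3:**
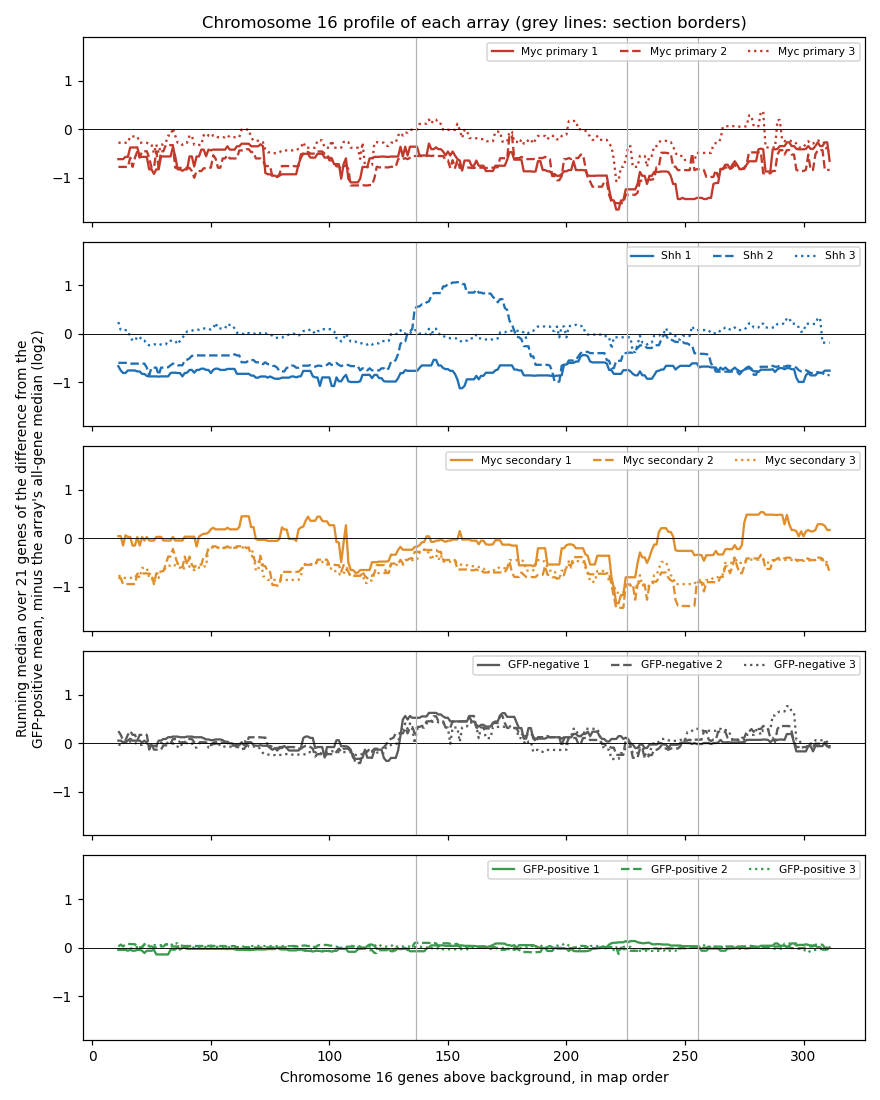
Running median over 21 genes of the difference from the GFP-positive mean, minus the array's all-gene median (log2), along the 321 chromosome 16 genes above background in map order. Each panel is 1 group, each line 1 array, and grey lines mark the section borders. Shh 1 stays below -0.3 in all 301 windows, and Shh 2 reaches 1.07.

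Among the tumour arrays Shh 2 had the most windows above 0.3, namely 40, up to 1.07 in the window centred on Pak2, beside 222 below -0.3. Myc secondary 1 had 32 windows above 0.3. The GFP-negative arrays had 53, 53 and 46, more than Shh 2, with highest windows of 0.62, 0.56 and 0.76. The difference between 2 arrays of the same group does not involve the GFP-positive reference, and was split into stretches of constant level by a least-squares fit, a step added after the profile was seen. Shh 1 minus Shh 3 fell into 3 stretches, with a median of -0.79 over the first 296 genes, from Zfp263 to Atp5o, -1.51 over 7 genes from Mrps6 to Cbr3, none of them higher in Shh 1, and -0.74 over the last 18. Shh 2 minus Shh 3 fell into 7 stretches. The first 124 genes, Zfp263 to Vps8, lay at -0.59, and the next 20, up to Hes1, at -0.05. The following 26 genes, Atp13a3 to Zfp148 at chr16:30312423-33503903, lay at 1.03, and all 26 were higher in Shh 2. After them 16 genes from Itgb5 to Ccdc58 lay at -0.11, 32 genes from Slc15a2 to Atg3 at -0.83, 30 genes from Cd200 to Crybg3 at -0.10 and the last 73, Nsun3 to Zbtb21, at -0.84. The 3 low stretches of Shh 2 lay between -0.84 and -0.59, beside -0.79 for the long stretch of Shh 1. Shh 1 minus Shh 2 gave a high stretch of Shh 2 from Opa1 to Zfp148, 28 genes at -1.98, and a second, short one of 5 genes from Senp7 to Tbc1d23 at -1.82. Shh 2 minus Shh 3 did not set these 5 genes apart, and they lay inside its stretch from Cd200 to Crybg3 at -0.10. Pairs of Myc primary arrays gave 4, 4 and 7 stretches, and pairs of Myc secondary arrays 2, 2 and 1. In Myc primary 2 minus Myc primary 3, 8 genes from Ccdc80 to Plcxd2 lay at -1.71. Pairs of GFP-negative arrays gave 1 stretch each. In 2 of the 3 pairs of GFP-positive arrays the fit set the 5 genes from Slc35a5 to Abhd10 apart, with medians of 0.30 and -0.23.

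**Figure D4:**
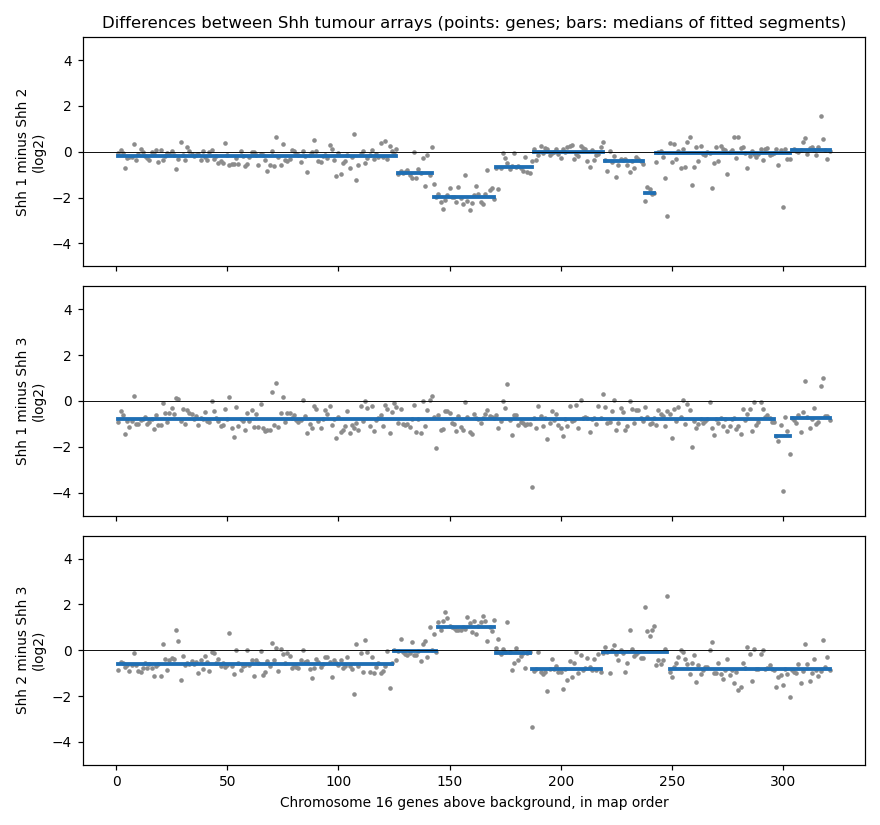
Difference between pairs of Shh tumour arrays (log2, all-gene median subtracted) along the 321 chromosome 16 genes above background in map order. Grey points are genes and blue bars the medians of fitted stretches; the bar at 1.03 in Shh 2 minus Shh 3 spans the 26 genes from Atp13a3 to Zfp148.

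The 26 genes from Atp13a3 to Zfp148 have varied roles, and 3 of them show their shared pattern. These and the other genes of this stretch were named for their position after the values were seen. Tfrc, the transferrin receptor through which cells take up iron, read 9.54, 10.99 and 10.30 in Shh 1, 2 and 3 and 9.67, 9.50 and 9.31 in the GFP-positive arrays. Zfp148, whose upstream sequence is given above, read 8.75, 10.76 and 9.48 in Shh 1, 2 and 3 against 9.49, 9.46 and 9.53. Rpl35a, a protein of the large ribosomal subunit and the brightest gene of section 2, read 12.94, 13.70 and 13.34 against 13.14, 13.13 and 13.07. In each of these genes Shh 2 was the highest and Shh 1 the lowest Shh array.

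Cep19 and Pigx, which share an upstream stretch, moved alike, reading 7.45, 9.71 and 8.74 for Cep19 and 7.97, 9.96 and 9.09 for Pigx in Shh 1, 2 and 3. Relative to the all-gene median, the 26 genes had a median of -0.90 in Shh 1, 0.97 in Shh 2 and between -0.80 and -0.18 in the Myc primary arrays. In Shh 2 all 26 were above 0 and in Shh 1 only Apod was. The stretch was also higher in the GFP-negative arrays, at 0.45, 0.45 and 0.33, with 17, 18 and 15 of the 26 genes above 0. Itgb5, just outside the stretch, read 4.97, 5.65 and 5.60 in Shh 1, 2 and 3. Umps, which follows Itgb5 and completes the synthesis of uridine monophosphate, read 7.88, 9.49 and 9.05. The second stretch holds Senp7, a SUMO protease, which read 6.80, 8.90 and 7.06, and Tomm70a, a mitochondrial import receptor whose relative differences were -0.52, 1.12 and 0.50.

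The chromosome was also read through other probe sets of its genes. For 139 genes with a further probe set above background, the second brightest gave chromosome medians of -0.57, -0.62 and -0.13 in the Myc primary, -0.67, -0.44 and 0.08 in the Shh and 0.08, -0.64 and -0.59 in the Myc secondary arrays, relative to all second probe sets. With them 7 of the 9 tumour arrays lay below 0, and Shh 3 and Myc secondary 1 slightly above it. For the 15 such genes between Atp13a3 and Zfp148, Shh 2 lay at 1.05 and Shh 1 at -0.46. Dim genes were less shifted in several arrays. In Shh 1 the 107 dimmest, the 107 middle and the 107 brightest of the 321 genes lay at -0.48, -0.80 and -0.89, and in Myc primary 1 at -0.44, -0.74 and -0.85. In Myc secondary 1 they lay at -0.14, -0.04 and -0.05, so this order did not hold there.

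Gene-by-gene tests on the same scale asked which genes passed in each contrast, with limma over all 17097 genes and Benjamini-Hochberg adjusted p below 0.05. Against GFP-negative cells, a contrast that the choice of chromosome did not use although it shares the tumour arrays, 36 of the 568 genes were higher and 124 lower in Myc primary tumours, against 19.1% and 14.7% of all genes. In Shh tumours 19 were higher and 79 lower (16% and 13.1% of all genes), and in Myc secondary tumours 45 were higher and 132 lower (19.4% and 18.0%). Of the chromosome's genes this is 6.34% and 21.8%, 3.35% and 13.9%, and 7.92% and 23.2%. The share of higher genes was below that over all genes in each contrast, while the share of lower genes stood above it in both Myc groups and, in Shh tumours, was close to it. These splits depended on scaling. With every array centred on its median gene they became 55 higher and 98 lower, 37 higher and 63 lower, and 207 higher and 85 lower. Centring raised the all-gene median of these contrasts by 0.21, 0.21 and 0.54, and the chromosome 16 median stayed below the all-gene median, at -0.26 against 0.39, 0.00 against 0.45 and 0.19 against 0.65. Leaving out Shh 1 gave 36 genes higher in Shh tumours than in GFP-negative cells. Shares over all genes were not computed for the centred counts or for this last count, so they have no background beside them.

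In Myc primary against Shh tumours 25 of the 568 genes were higher and 34 lower, where 8.46% and 7.33% of all genes were. The chromosome's shares were 4.40% and 5.99%. The higher count was 14 without Myc primary 3, 11 without Shh 1 and 13 without Shh 2. The median over the 321 genes was -0.24, against 0.01 over all genes. Myc secondary against primary tumours gave 0 genes higher and 2 lower, B3gnt5 and 2510009E07Rik, where 0.257% and 0.462% of all genes passed in limma. At an unadjusted p below 0.05, 30 were higher and 17 lower, and array centring gave 3 and 2. The lower count was 6 without Myc primary 1 and 5 without Myc secondary 1, and the higher count 1 without Myc primary 3 or Myc secondary 1. For counts at an unadjusted p, with centring or without single arrays, the shares over all genes were not computed. Such counts therefore say nothing about this chromosome in particular.

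Genes of neurons and axons, a list that spans adhesion, guidance and synapses, had a median below 0 in each tumour array, with 11 to 16 of the 16 members above background below it. Of 23 listed genes, 22 were measured and 16 lay above background. That median, relative to GFP-positive cells, was -1.98, -1.98 and -1.38 in the Myc primary, -1.77, -2.50 and -2.17 in the Myc secondary and -0.76, -0.81 and -0.72 in the Shh arrays, where in Shh 1 it was close to the chromosome's own -0.77. In Myc primary against Shh tumours 8 of the 22 were lower and 0 higher, where 7.33% and 8.46% of all genes were, and the median was -0.80, against 0.01 over all genes. In Myc primary tumours against GFP-negative cells 8 were lower and 2 higher, where 14.7% and 19.1% of all genes were. In Myc secondary tumours 9 were lower and 1 higher, where 18.0% and 19.4% of all genes were. In Shh tumours 4 were lower and 4 higher, where 13.1% and 16% of all genes were. The Shh median in this contrast was -0.08, against 0.24 over all genes. How low the Shh tumours stood thus depended on the sorted population they were set against.

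Alcam, a cell adhesion molecule of growing axons at chr16:52248996-52453081, read 4.33, 4.72 and 5.66 in Myc primary, 4.94, 5.22 and 4.67 in Myc secondary and 8.78, 9.62 and 8.77 in Shh tumours. It read 9.22, 8.54 and 9.31 in GFP-negative and 9.96, 10.16 and 9.64 in GFP-positive cells. The Myc arrays of both kinds lay near background and overlapped each other but no other group. Alcam fell by 4.15 ± 0.34 on the log2 scale (SE) in Myc primary against Shh tumours (limma, adjusted p = 8.4e-06) and by 4.12 ± 0.34 against GFP-negative cells (limma, adjusted p = 2.6e-06). Myc primary 3 alone of its group was above background, and the fall against Shh tumours was at least 15.9-fold.

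Stxbp5l, a tomosyn that holds back synaptic vesicle release, read 5.48, 5.44 and 5.51 in Myc primary, 6.12, 6.30 and 5.92 in Myc secondary and 7.19, 7.30 and 7.42 in Shh tumours, against 9.26, 8.98 and 9.30 in GFP-positive cells. All 3 tumour groups lay below the GFP-positive arrays and apart from each other. It fell by 1.82 ± 0.17 (SE) in Myc primary against Shh tumours (limma, adjusted p = 2e-05). Nectin3, an adhesion protein of adherens junctions and synapses, read 6.25, 7.20 and 7.79 in Myc primary and 9.77, 9.92 and 9.74 in Shh tumours, and fell by 2.73 ± 0.54 between them (limma, adjusted p = 0.0042). Its Myc secondary arrays were widely spread, at 4.63, 6.98 and 7.16.

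Synj1, the phosphatase that uncoats synaptic vesicles, read 7.17, 7.23 and 7.45 in Myc primary, 8.47, 8.22 and 8.83 in Shh and 6.95, 6.97 and 7.33 in Myc secondary tumours. In GFP-negative cells it read 9.16, 9.46 and 9.30. It fell in all 3 tumour groups against GFP-negative cells, by 2.02 ± 0.175, 0.80 ± 0.175 and 2.22 ± 0.175 in that order (limma, adjusted p = 3.5e-06, 0.0043 and 1.4e-06). Gap43, a growth cone protein named after its values were seen, read 9.08, 8.26 and 10.28 in Myc primary and 10.92, 10.60 and 11.80 in Shh tumours, against 12.21, 11.998 and 12.14 in GFP-positive cells. Against GFP-negative cells, at 7.90, 7.55 and 5.91, it was higher in both, by 2.09 ± 0.54 and 3.99 ± 0.54 (limma, adjusted p = 0.0087 and 0.00015). The order of this gene thus depended on the sorted population it was set against. Kcnj6, a potassium channel subunit, read between 4.29 and 5.40 in all 9 tumour arrays, against 8.11, 8.06 and 8.02 in GFP-positive and 4.17, 3.96 and 4.97 in GFP-negative cells.

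**Figure D5:**
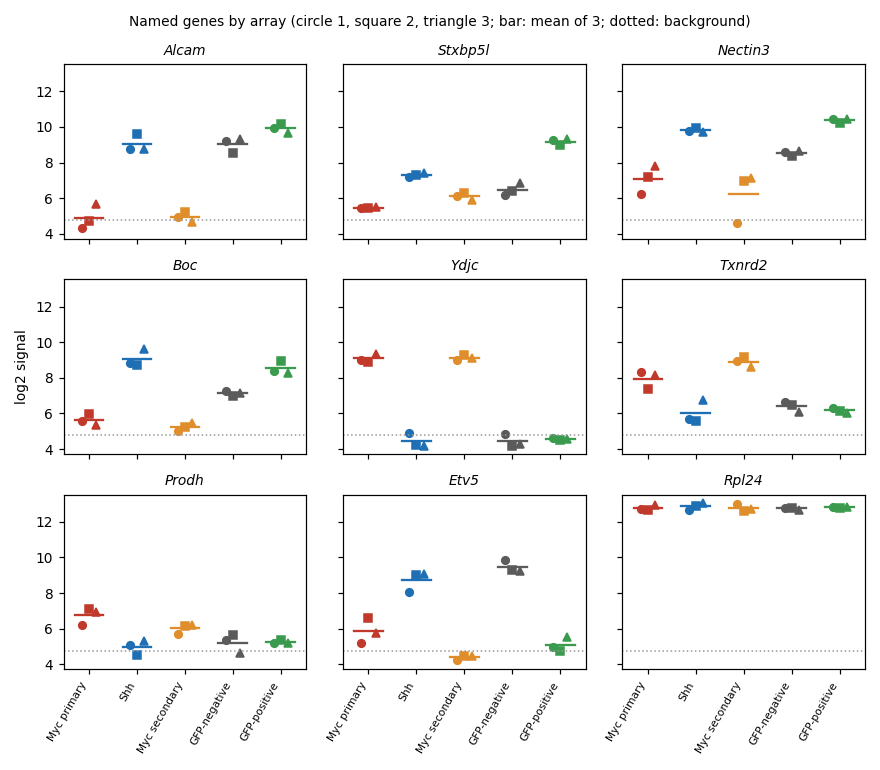
Log2 signal of 9 chromosome 16 genes in each array, by group, with a bar at the mean of the 3 arrays and a dotted line at the background level of 4.77. Alcam is near background in all Myc arrays, Ydjc is above 8.8 in Myc arrays alone, and Rpl24 lies between 12.63 and 13.08 in all 15.

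Genes of signalling included Boc, which had the smallest limma p of the listed members above background in Myc primary against Shh tumours. Of 18 listed genes, 16 were measured and 14 lay above background, and in Myc primary against Shh tumours 3 of the 16 were lower and 0 higher (7.33% and 8.46% of all genes), with a median of -0.70. Boc read 5.60, 5.98 and 5.33 in Myc primary, 4.99, 5.23 and 5.47 in Myc secondary and 8.84, 8.74 and 9.63 in Shh tumours, and 8.38, 8.94 and 8.28 in GFP-positive cells. The Shh arrays overlapped the GFP-positive arrays, and all Myc arrays lay below every other array. It fell by 3.43 ± 0.26 (SE) in Myc primary against Shh tumours (limma, adjusted p = 3.7e-06), and in Shh tumours it was higher than in GFP-negative cells by 1.92 ± 0.26 (limma, adjusted p = 0.00014).

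Adcy5, an adenylyl cyclase, read 3.87, 4.24 and 3.96 in Myc primary and 6.56, 7.002 and 5.80 in Shh tumours, and was at least 3.21-fold lower in Myc primary tumours (limma, adjusted p = 0.00068). The fold is a lower bound, since its Myc arrays were all below background and were set to that level, as for the other lower bounds given here. Hes1, a transcription factor that Notch induces, read 4.45, 4.499 and 5.06 in Myc primary and 5.29, 7.24 and 7.35 in Shh tumours, against 8.17, 7.27 and 7.68 in GFP-negative cells. With 1 of 3 Myc primary arrays above background, it was at least 3.38-fold lower there than in Shh tumours (limma, adjusted p = 0.012). Without Shh 2 the adjusted p was 0.056, and in a fit of these 6 arrays alone it was 0.077.

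Among genes of transcription and chromatin, all 24 were measured and 22 lay above background. Against GFP-negative cells 13 were lower and 1 higher in Myc primary, 7 and 1 in Shh and 12 and 1 in Myc secondary tumours. Over all genes the shares lower and higher were 14.7% and 19.1%, 13.1% and 16%, and 18.0% and 19.4%. The medians of the list were -0.96, -0.59 and -1.002, against 0.18, 0.24 and 0.11 over all genes. Etv5, an ETS factor downstream of growth factor signalling, read 5.21, 6.60 and 5.74 in Myc primary, 4.25, 4.46 and 4.48 in Myc secondary and 8.08, 8.99 and 9.09 in Shh tumours, against 4.99, 4.74 and 5.54 in GFP-positive cells. The Shh arrays stood above those of both Myc groups. In GFP-negative cells the mean of Etv5 was 9.46, above all 3 Shh arrays. The place of the Shh tumours thus depended on the sorted population they were set against. Etv5 fell by 2.87 ± 0.35 in Myc primary against Shh tumours (limma, adjusted p = 0.00019). Zbtb20, a repressor that acts in neural progenitors, read 8.50, 8.62 and 8.37 in Myc primary and 9.48, 9.75 and 10.32 in Shh tumours and fell by 1.35 ± 0.22 (limma, adjusted p = 0.0013).

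Olig1, a factor of oligodendrocyte development, read 5.09, 4.43 and 9.27 in Myc primary, 6.96, 7.11 and 7.29 in Shh and 3.89, 3.63 and 3.62 in Myc secondary tumours, against 10.88, 10.23 and 9.84 in GFP-negative cells. Myc primary 3 stood apart from its group. The summed signal of 9 measured oligodendrocyte markers was 12.92 on the log2 scale in that array, against 9.76 and 8.53 in Myc primary 1 and 2, and 9 of 9 were above background. Fibroblast and meningeal markers also summed to 11.67 there, against 8.31 and 9.20. Crebbp, a histone acetyltransferase, read 9.76, 3.96 and 5.21 in Myc secondary tumours, against 10.44, 10.41 and 10.33 in GFP-positive cells, so Myc secondary 1 stood apart from the rest. Whether other cells had a part in the smaller shift of Myc primary 3 was not tested.

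Of 19 genes of mitochondria and metabolism, 16 were measured and 15 lay above background. In Myc primary against Shh tumours 3 of the 16 were higher and 0 lower (8.46% and 7.33% of all genes), with a median of 0.45. Against GFP-negative cells 4 and 5 were higher in Myc primary and Myc secondary tumours with 0 lower, and the share higher over all genes was 19.1% and 19.4%, so these counts were near the background. Txnrd2, the mitochondrial thioredoxin reductase, read 8.32, 7.36 and 8.14 in Myc primary, 8.95, 9.19 and 8.59 in Myc secondary and 5.71, 5.58 and 6.78 in Shh tumours. The Myc arrays lay above all others, and it was higher in Myc primary than in Shh tumours by 1.92 ± 0.32 (limma, adjusted p = 0.0013). Gart, which catalyses several steps of purine synthesis, read 10.26, 10.13 and 10.12 in Myc primary, 9.90, 10.32 and 10.01 in Myc secondary and 8.76, 8.59 and 9.46 in Shh tumours. It was higher by 1.23 ± 0.22 in Myc primary than in Shh tumours (limma, adjusted p = 0.0023) and by 1.53 ± 0.22 than in GFP-negative cells (limma, adjusted p = 0.00017).

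Of the translation genes, 14 of 17 were measured and 13 lay above background, and 3 were higher and 0 lower in Myc primary tumours than in GFP-negative cells, near the 19.1% higher over all genes. Rsl1d1, a nucleolar protein, was higher in Myc primary than in Shh tumours by 0.69 ± 0.21 (limma, adjusted p = 0.047), and the call was lost with centring (adjusted p = 0.12) and without any of 5 single arrays, where it ranged from 0.068 without Myc primary 1 and 0.076 without Myc primary 2 to 0.13 without Shh 2, 0.15 without Myc primary 3 and 0.18 without Shh 1. Rpl24, a ribosomal protein and the brightest gene of section 3, read between 12.63 and 13.08 in all 15 arrays. For DNA replication and repair, 13 of 16 were measured and 12 lay above background, and 2 of the 13 were lower in Myc primary than in Shh tumours, where 7.33% of all genes were. These were Parp9 and Dtx3l, neighbours whose products act as a complex in the response to DNA damage and interferon. Parp9 read 5.06, 5.82 and 5.27 in Myc primary and 6.54, 7.36 and 7.51 in Shh tumours and fell by 1.76 ± 0.29 (limma, adjusted p = 0.0012). Dtx3l read 4.26, 5.24 and 4.93 against 5.54, 6.20 and 6.48 and fell by 1.26 ± 0.27 (limma, adjusted p = 0.0075), with an adjusted p of 0.059 in a fit of these 6 arrays alone.

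The DiGeorge region held 36 listed genes in section 1, of which 35 were measured and 28 lay above background. Its median relative difference was -0.82, -0.76 and -0.39 in the Myc primary, -0.90, -0.65 and 0.04 in the Shh and 0.26, -0.66 and -0.77 in the Myc secondary arrays, close to the levels of the chromosome except for Myc secondary 1. In Myc primary against Shh tumours 2 of the 35 were higher and 1 lower, no more than the 8.46% and 7.33% over all genes. Prodh, proline dehydrogenase, read 6.21, 7.13 and 6.94 in Myc primary and 5.10, 4.53 and 5.33 in Shh tumours and was higher by 1.77 ± 0.30 (limma, adjusted p = 0.0016). Tbx1, the transcription factor most studied in DiGeorge syndrome, read 7.90, 6.98 and 5.24 in Myc primary, 6.10, 7.14 and 7.71 in Shh and 5.92, 7.41 and 7.57 in Myc secondary tumours, against 3.23, 3.56 and 3.18 in GFP-positive and 4.40, 5.27 and 3.998 in GFP-negative cells. It was higher than in GFP-negative cells by 2.15 ± 0.64, 2.43 ± 0.64 and 2.41 ± 0.64 in that order (limma, adjusted p = 0.019, 0.012 and 0.0095), with 1 of 3 GFP-negative arrays above background.

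The list of the Down syndrome region, which holds part of the counterparts of human chromosome 21, had 52 genes. Of these, 49 were measured, all in section 4, and 36 lay above background. Their median relative difference was -0.29, -0.68 and -0.26 in the Myc primary, -0.72, -0.76 and 0.09 in the Shh and 0.30, -0.49 and -0.48 in the Myc secondary arrays. Against GFP-negative cells 17 of the 49 were lower and 4 higher in Myc primary tumours. In Shh tumours 17 were lower and 1 higher, and in Myc secondary tumours 14 and 5. Over all genes the shares lower and higher were 14.7% and 19.1%, 13.1% and 16%, and 18.0% and 19.4%. The medians of the list were -0.86, -0.50 and -0.37, beside -0.46, -0.20 and -0.34 over the chromosome. In Myc primary against Shh tumours 4 of the 49 were higher and 1 lower, no more than the 8.46% and 7.33% over all genes. Psmg1, a chaperone of proteasome assembly, read 10.35, 10.22 and 10.72 in Myc primary and 8.62, 8.43 and 9.80 in Shh tumours and was higher by 1.48 ± 0.28 (limma, adjusted p = 0.0032), with an adjusted p of 0.053 in a fit of these 6 arrays alone. Hmgn1, a nucleosome-binding protein and the brightest gene of section 4, read 11.86, 11.996 and 12.15 in Myc primary, 12.14, 12.04 and 12.45 in Shh and 12.46, 11.99 and 11.99 in Myc secondary tumours, against 12.74, 12.70 and 12.77 in GFP-positive cells. All 9 tumour arrays lay below the 3 GFP-positive arrays.

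Of 17 immune and interferon genes, 16 were measured and 8 lay above background, and 9, 9 and 8 were lower in Myc primary, Shh and Myc secondary tumours than in GFP-negative cells, with 0 higher. These are counts of the 16 measured, of which Cd86, Cd80 and Hcls1 were called in all 3 contrasts without a mean above background. Over all genes 14.7%, 13.1% and 18.0% were lower. Microglia and macrophage markers were all above background in the GFP-negative arrays, where 8 of them summed to between 13.57 and 14.79, against 9.79 to 11.35 in the tumours and 6.997 to 7.60 in GFP-positive cells. Their part in these differences was not tested. Cd47, which keeps phagocytes from engulfing a cell, read 7.97, 8.19 and 8.64 in Myc primary and 9.13, 9.42 and 9.45 in Shh tumours, against 10.14, 10.21 and 10.05 in GFP-negative cells. It fell by 1.06 ± 0.19 in Myc primary against Shh tumours (limma, adjusted p = 0.0021).

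Ydjc, a gene of section 1 at chr16:17146949-17148857 whose product resembles a carbohydrate deacetylase, separated the Myc arrays from all others. It read 9.01, 8.90 and 9.35 in Myc primary and 9.01, 9.28 and 9.12 in Myc secondary tumours and between 4.16 and 4.93 in the 9 other arrays. In Shh tumours and in GFP-negative cells 1 of 3 arrays was above background. Ydjc was at least 19.2-fold higher in Myc primary than in Shh tumours (limma, adjusted p = 5.2e-08) and at least 19.7-fold higher than in GFP-negative cells (limma, adjusted p = 2.7e-08). B3gnt5, a glycosyltransferase that starts the lacto-series of glycolipids, differed between the Myc groups, at 5.84, 7.55 and 7.60 in primary and 3.08, 3.11 and 3.63 in secondary tumours. All 3 secondary arrays were below background, and it was at least 4.69-fold lower in secondary than in primary tumours (limma, adjusted p = 0.0077). In a fit of these 6 arrays alone the adjusted p was 0.17, and with the mean of its probe sets it was 0.027.

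The labels were checked on genes outside chromosome 16. Gli1, a target of Hedgehog signalling, read 9.05 to 9.58 in Shh tumours and 3.45 to 4.33 in the Myc arrays, and Atoh1 read 8.51 to 9.29 in GFP-positive and 3.75 to 4.55 in GFP-negative cells. The probe set of Cdkn2c stayed below background in all 15 arrays, from 3.31 to 4.12. Myc itself read 8.41, 5.21 and 8.997 in Myc primary and 8.19, 9.13 and 8.15 in Shh tumours, so the library labelled Myc primary 2 did not show a high signal of this probe set. It read 10.10, 9.115 and 8.875 in Myc secondary tumours, 8.70, 8.55 and 8.56 in GFP-negative and 7.37, 7.39 and 6.68 in GFP-positive cells. This probe set thus did not separate the Myc tumours from the other groups. Granule neuron progenitor markers, 7 measured, summed to 12.78 to 12.92 in Shh, 13.04 to 13.14 in GFP-positive and 7.70 to 10.43 in Myc arrays.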

How the data were processed

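RNA was measured on 15 one-colour Affymetrix HT_MG-430_PM arrays, 3 in each of 5 groups taken from the labels. The deposited values are log2 signals of 45141 probe sets, which the authors made with RMA in Partek 6.5, per the submitters' processing notes. Tumour cells were purified on a Percoll gradient before RNA extraction, per the labels' protocols. RMA brings all arrays to 1 distribution, so differences are relative to the other genes of an array.

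Probe sets with 1 gene (28898) were placed in GRCm38.p6, 28689 through the gene ID and 152 by symbol, 7 genes of chromosome 16 among the latter. A gene took its probe set with the highest mean, and 269 chromosome 16 genes had several. Background was the 95 percentile of 23 nonspecific control probe sets. Dscam (4.79) was the dimmest gene kept and Lmln (4.77, just below 4.7684) the brightest left out.

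Comparisons used limma 3.58.1 (lmFit and eBayes, 5 groups in 1 model, 10 residual degrees of freedom), with Benjamini-Hochberg adjustment over 17097 genes in each of 9 contrasts. The 3 against GFP-positive cells served only to choose genes to name. The fit and the stretch finder (at least 5 genes, penalty factor 3) were tested on simulated data. Named genes were the 5 largest rises and falls that passed in 5 contrasts without array overlap. The brightest, first and last genes of each section were also named. From each list came up to 4 members above background with the smallest limma p in Myc primary against Shh tumours. Their p-values in that contrast are therefore selected and do not stand for the list. The members and lists were chosen with earlier results of these data known. The number of arrays limits the precision.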

Additional observations from a re-analysis of the deposited data

Results flagged for a closer look

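For 6 named genes the difference from GFP-positive cells, relative to the array's all-gene median, pointed one way in every Myc primary array and the other way in every Shh array, and the groups differed in limma. Lower in Myc primary than in Shh tumours were Boc (-3.43, SE 0.26, adjusted p = 3.7e-06), Clic6, an intracellular chloride channel (-3.91, SE 0.88, adjusted p = 0.0091) and Dtx3l (-1.26, SE 0.27, adjusted p = 0.0075). Higher were Prodh (1.77, SE 0.30, adjusted p = 0.0016), Zdhhc23, a palmitoyltransferase (1.98, SE 0.49, adjusted p = 0.016) and Mylk, myosin light chain kinase (1.56, SE 0.41, adjusted p = 0.021). Clic6 read 5.52, 7.92 and 9.47 in Shh 1, 2 and 3 and 3.67 to 3.81 in Myc primary tumours, below background there, so it was at least 7.31-fold lower. Before the all-gene median was taken off, Clic6 and Dtx3l differed from GFP-positive cells by -0.20 and -0.29 in Myc primary tumours. Prodh and Zdhhc23 differed by -0.26 and -0.27 in Shh tumours. For Dtx3l, Prodh and Zdhhc23, 1 of 3 arrays there was not above background. The signs of these 4 genes on that side thus rest on small differences at or near background. Mylk was below background in all 3 Shh arrays, which makes the rise at least 2.12-fold. It differed from GFP-positive cells by 0.01 in Shh tumours before the all-gene median was taken off, so its opposite sign there rests on that step. Its call was lost without any single Shh array (adjusted p 0.051 to 0.058), and that of Zdhhc23 without Myc primary 3 (0.062) or Shh 2 (0.057).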

How the results depend on the processing

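Of 192 recomputed section medians 184 moved by less than 1 SD between arrays. In the Shh sections that SD was larger than the mean itself, so the count says little there. The Shh mean of section 2, at -0.10, became 0.13 with second probe sets and 0.15 without Shh 1. Without the filter on dim genes the Myc primary medians of sections 1, 3 and 4 were -0.17, -0.044 and -0.068 and the Myc secondary medians of sections 2 and 3 were -0.038 and -0.034. Centring gave -0.72 for section 1 of Myc primary tumours, and second probe sets, tried after seeing the data, gave -0.38 and -0.21 for section 3 of Myc primary and secondary tumours. The cause was not tested, but the unfiltered set adds genes at background. No paired analysis was possible because the labels give no replicate numbers.

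Shares over all genes were computed in the main fit alone, so counts under other settings stand without a background. Counts of calls, higher then lower, moved over 1.5 times as follows. Array weights gave 136 lower for Shh and 74 higher for Myc secondary tumours against GFP-negative cells, 42 higher for Myc primary against Shh tumours, and 6 and 10 for Myc secondary against primary. Fits of 6 arrays alone gave 12 higher for Shh against GFP-negative, 14 and 22 for Myc primary against Shh, and 0 lower for Myc secondary against primary tumours. Centring gave 55 higher for Myc primary, 37 higher for Shh and 207 and 85 for Myc secondary against GFP-negative, and 3 higher for Myc secondary against primary. The mean of probe sets gave 1 and 1 for the last contrast. A fit without Myc primary 3, GFP-negative 3 and Myc secondary 1, chosen after seeing the data, gave 79 lower for Myc primary against Shh, and 5 and 6 for Myc secondary against primary.

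With single arrays left out, counts ranged from 13 to 36 higher for Shh against GFP-negative, 11 to 37 higher for Myc primary against Shh, and 0 to 1 and 2 to 6 for Myc secondary against primary. Of 37 results on named genes none reversed, and 9 lost the call under some setting.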
